A study of Homo sapiens with 4 samples.

Results

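The genes of DNA replication origins and replication forks form a set of 52, taken by gene symbol from the 16504 gene symbols of the expression table. They were read in 4 RNA-seq libraries, 2 of a control group (NC, CEBPG present) and 2 of a CEBPG knockdown group (labelled CEBPG3), with replicates numbered 1 and 2 in each. All 4 libraries carry the label NB4, a human cell line from an acute promyelocytic leukemia. In the study, short hairpin RNAs (shRNAs) were delivered by lentivirus and stable lines were selected with puromycin, so both groups share the transduction and the selection. Reading the number 3 of the knockdown label as the third CEBPG shRNA is an assumption, and 1 knockdown label means that an effect of CEBPG loss and an effect of that hairpin cannot be told apart. No source says that the replicates were separate cultures, so the p-values measure a spread between libraries that may be technical.

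Eukaryotic cells copy their genome once per cycle by separating the loading of the helicase from its activation. The origin recognition complex, with CDC6 and CDT1, loads the MCM2-7 ring on DNA, and geminin (GMNN) blocks CDT1 once S phase begins. The kinase CDC7-DBF4 and further firing factors then bring CDC45 and GINS to the ring, after which polymerases, the sliding clamp PCNA, the single-strand binding protein RPA and the fork protection proteins act at the moving fork. Many of these genes are transcribed under E2F factors and peak between G1 and S phase, so their RNA in a culture also reflects the share of cells in each phase.

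Levels are given in FPKM (fragments per kilobase of transcript, scaled to the mapped fragments of the library), a unit per length that allows genes to be set against each other. The deposited values hold no read counts, so depth was unknown. CEBPG itself read 17.1 and 18.1 FPKM in the control and 6.91 and 7.96 FPKM in the knockdown libraries, 42.2% of control. The cell type markers went against the label. Of 15 erythroid markers, 12 were over 10 FPKM in every library, with a summed level of 8025 to 8491 FPKM in the control and 8927 to 9490 FPKM in the knockdown libraries, and AHSP and SLC4A1 were under 1 FPKM in all 4. Of 11 promyelocytic and myeloid markers in the table, only LYZ and SPI1 were over 10 FPKM in every library and 6 were under 1 FPKM in all, with sums of 50.1 to 50.2 and 52.2 to 53.0 FPKM. The 4 lymphoid markers in the table were under 1 FPKM throughout, with sums of 0.394 to 0.422 and 0.635 to 0.781 FPKM. The libraries are therefore called libraries labelled NB4, and the part of cell identity in the values that follow was not tested.

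Promoter sequences are shown for the 4 genes at the ends of the measured response. SUPT16H had the lowest fold change, MCM6 the lowest of the helicase, and RRM2 and TYMS the highest among the members. Each sequence holds the 250 bases before the RefSeq transcription start on GRCh38.p14, read 5′ to 3′ on the strand of the gene, which is the minus strand for MCM6 (chr2:135876444-135876693) and SUPT16H (chr14:21384020-21384269) and the plus strand for RRM2 (chr2:10122489-10122738) and TYMS (chr18:657403-657652). Capitals mark E2F letters (TTTCCCGC, TTTGGCGC, TTTCGCGC or TTTGCCGC) and the CCAAT box (CCAAT), both searched on either strand.
MCM6: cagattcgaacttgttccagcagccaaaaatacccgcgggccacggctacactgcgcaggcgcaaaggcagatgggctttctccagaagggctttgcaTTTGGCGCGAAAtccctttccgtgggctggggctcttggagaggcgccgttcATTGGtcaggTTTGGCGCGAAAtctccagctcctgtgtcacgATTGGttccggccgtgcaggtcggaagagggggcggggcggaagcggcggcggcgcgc
SUPT16H: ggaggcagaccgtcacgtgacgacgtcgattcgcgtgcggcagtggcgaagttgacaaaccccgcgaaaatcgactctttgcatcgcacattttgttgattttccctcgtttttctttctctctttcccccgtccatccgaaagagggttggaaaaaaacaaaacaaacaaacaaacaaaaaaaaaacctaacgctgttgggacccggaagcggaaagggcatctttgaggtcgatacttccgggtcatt
RRM2: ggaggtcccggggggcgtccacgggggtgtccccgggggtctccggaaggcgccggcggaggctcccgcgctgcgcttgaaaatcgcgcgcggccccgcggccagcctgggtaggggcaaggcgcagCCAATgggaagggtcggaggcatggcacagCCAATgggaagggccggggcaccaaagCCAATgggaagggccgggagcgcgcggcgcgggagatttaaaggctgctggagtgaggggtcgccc
TYMS: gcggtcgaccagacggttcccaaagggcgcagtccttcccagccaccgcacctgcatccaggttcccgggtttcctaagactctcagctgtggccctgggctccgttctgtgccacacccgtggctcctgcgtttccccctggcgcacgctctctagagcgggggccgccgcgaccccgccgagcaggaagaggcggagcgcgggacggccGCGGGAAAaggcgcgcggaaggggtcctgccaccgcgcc
In MCM6, each of 2 stretches of 12 bases holds a pair of overlapping E2F matches, which begin 152, 148, 90 and 86 bases before the start, and CCAAT boxes lie at 100 and 58 bases before it. RRM2 holds 3 CCAAT boxes at 123, 93 and 66 bases before the start and no E2F letters. TYMS holds 1 E2F match at 39 bases before the start, and SUPT16H holds neither set of letters.

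A RefSeq window was found for 46 of the 52 genes. E2F letters were in 13 of the 46 (28.3%), against 409 of 8474 windows of the genes tested (4.83%), and the CCAAT box was in 25 (54.3%), against 36.1%. A composite of C/EBP and ATF letters (TGATGNAAT, both strands) was in 0 of the 46 windows and in 0.389% of the windows of genes tested. Within the set, E2F letters were in 3 of the 8 genes that fell, in 1 of the 3 that rose and in 9 of the 35 others with a window. The CCAAT box was in 6, 2 and 17 of these groups. The shares are those of letters in a window, not of bound sites.

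**Figure D1:**
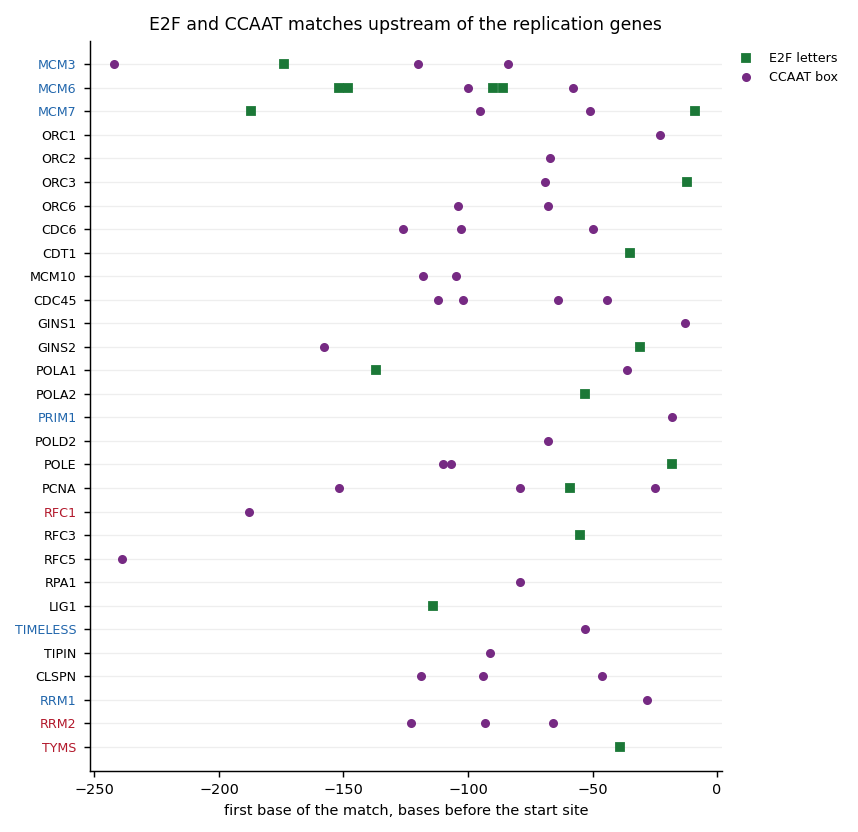
Positions of E2F letters and CCAAT boxes in the 250 bases before the RefSeq start, in bases from the start (x axis), for the members with at least 1 match (rows). Marks show the first base of each match, and gene names are blue where the gene fell and red where it rose. MCM6 carries 4 E2F matches in 2 places, and RRM2 carries 3 CCAAT boxes.

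All 52 genes had a mean of at least 1 FPKM, the lowest being POLD3 at 6.36 FPKM and the highest PCNA at 234 FPKM. Their median level was 30.6 FPKM, against 9.86 FPKM over the 10968 genes tested. In the knockdown, 8 of the 52 fell (MCM3, MCM6, MCM7, DBF4, PRIM1, TIMELESS, SUPT16H and RRM1), 3 rose (RFC1, RRM2 and TYMS) and 41 did not pass the test, a limma fit of log2(FPKM + 1) across all genes tested with a Benjamini-Hochberg adjusted p under 0.05. These 11 genes are 21.2% of the set, against 20.9% of all genes tested, so the share called was near the background. By direction, 15.4% of the members fell against 9.99% of all genes, and 5.77% rose against 10.9%. The median log2 fold change of the members was −0.034, against 0.015 over all genes tested. A negative value was found for 32 members and a positive value for 20, against 5186 and 5782 of all genes tested. A log2 fold change beyond 0.5 in size was found for 2 members (3.85%), SUPT16H and RRM2, against 6.43% of all genes tested.

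In 23 members both knockdown values lay below the control values and in 13 both lay above, together 69.2% of the set against 64.8% of all genes tested. The calls depended on each library. Without control replicate 1, 5 members fell and 5 rose (17.6% of all genes called), and without control replicate 2, 8 fell and 2 rose (15.2%). Without knockdown replicate 1 or without knockdown replicate 2, only SUPT16H and MCM6 fell and only RRM2 rose, with 7.39% and 7.9% of all genes called. When a group was left with 1 library, it was assumed to vary like the other group. In bulk RNA, fewer cells in S phase and less RNA of a gene per cell cannot be told apart.

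**Figure D2:**
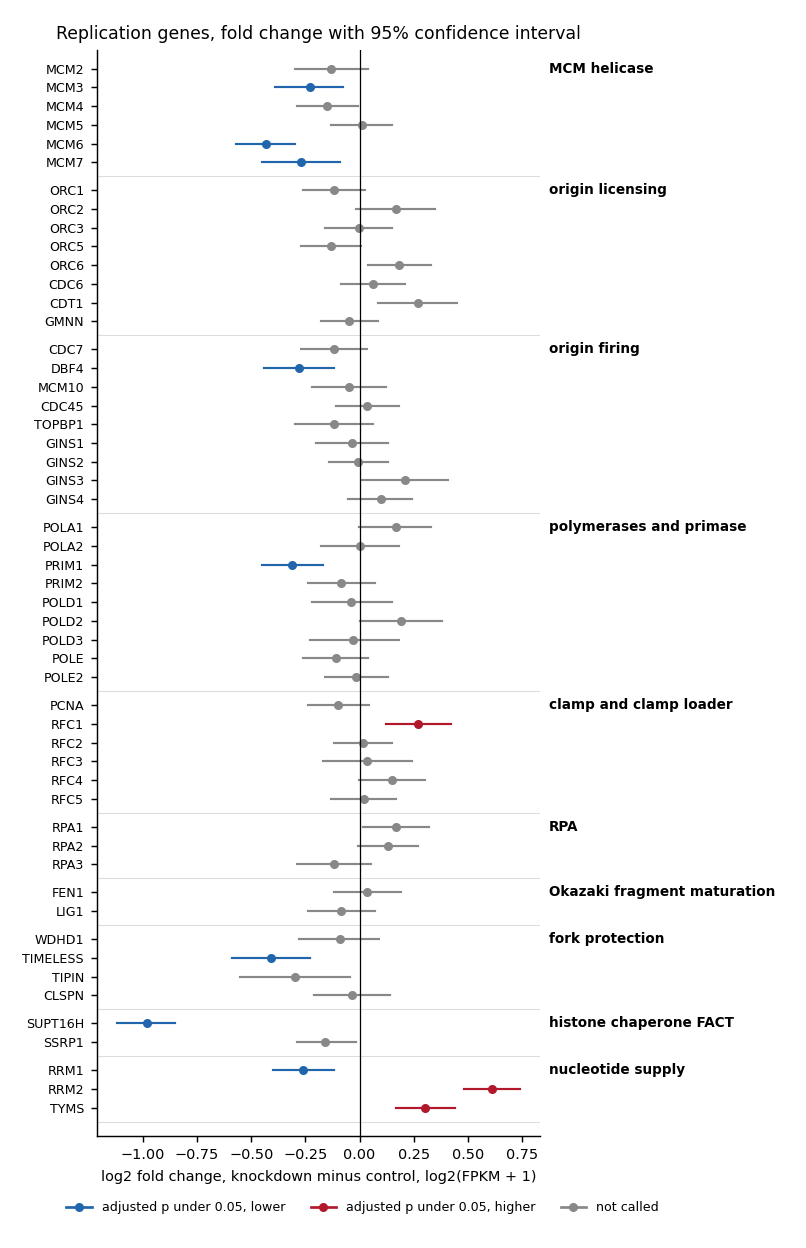
Log2 fold change of log2(FPKM + 1), knockdown minus control (x axis), for each of the 52 genes (rows, grouped by role), with the 95% interval of the limma fit as a bar. SUPT16H stands apart at −0.98 and RRM2 at 0.61, while most other members lie within 0.2 of 0.

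The MCM2-7 ring is the motor of the replicative helicase, and its 6 subunits act in equal number. Of the 6 genes, 3 fell and 0 rose, where 9.99% of all genes tested fell and 10.9% rose, and the median log2 fold change was −0.19. MCM6 (ENSG00000076003.5, chr2:135839626-135876443, minus strand, hg38) read 123 and 118 FPKM in the control and 88.5 and 89.0 FPKM in the knockdown libraries. Its groups did not overlap and the knockdown mean was 73.8% of control, a log2 fold change of −0.43 (SE 0.056, limma adjusted p = 0.00417). MCM7 read 199.7 and 176 FPKM in the control and 159.8 and 151 FPKM in the knockdown libraries. Its groups were separate, but the control libraries differed more from each other than the knockdown libraries did, and the log2 fold change was −0.27 (SE 0.076, limma adjusted p = 0.0479). MCM3 read 119 and 108 FPKM against 98.3 and 94.1 FPKM, again without overlap, with a log2 fold change of −0.23 (SE 0.067, limma adjusted p = 0.0492).

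MCM6 passed the test with any library left out (limma adjusted p 0.0057 to 0.0445). Among the 4 fits with a library left out, MCM7 and MCM3 passed only in that without control replicate 2. Their limma adjusted p was 0.109 and 0.117 without control replicate 1, 0.15 and 0.165 without knockdown replicate 1, and 0.249 and 0.254 without knockdown replicate 2. The remaining subunits, MCM2, MCM4 and MCM5, had log2 fold changes of −0.13, −0.15 and 0.011. MCM5 read 86.9 and 81.9 FPKM in the control and 84.8 and 85.2 FPKM in the knockdown libraries, which overlap.

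As a share of the summed FPKM of the 6 subunits, MCM6 made up 17.0% and 17.8% in the control and 14.8% and 15.1% in the knockdown libraries. The share of MCM5, whose FPKM overlapped between the groups, went from 12.0% and 12.4% to 14.2% and 14.5%. The shares of MCM2 and MCM4 also lay higher in both knockdown libraries, and those of MCM3 and MCM7 overlapped. The ratio of MCM6 to MCM5 was 1.41 and 1.44 in the control and 1.04 and 1.04 in the knockdown libraries. That of MCM6 to MCM2 was 1.56 and 1.7 against 1.31 and 1.33. The sum itself was 723 and 663 FPKM in the control and 599 and 589.5 FPKM in the knockdown libraries. Shares and ratios are given as values, since an exact permutation test of 2 libraries against 2 cannot give a 2-sided p under 0.333.

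The licensing factors place the ring on DNA. None of the 8 passed the test, while 2 of them, CDT1 and ORC6, had an unadjusted p under 0.05 (2 of 8, against 37.0% of all genes tested), and the median log2 fold change of the 8 was 0.029. CDT1, the loading factor, lay nearest to the threshold. It read 82.4 and 71.2 FPKM in the control and 91.9 and 93.2 FPKM in the knockdown libraries, with a log2 fold change of 0.27 (SE 0.078, limma adjusted p = 0.0513). CDT1 passed without control replicate 1 but not with any other library left out. GMNN, which inhibits CDT1, read 86.7 and 84.3 FPKM against 82.2 and 83.3 FPKM, and the ratio of CDT1 to GMNN was 0.95 and 0.844 in the control and 1.12 in both knockdown libraries. The 5 subunits of the origin recognition complex among the members (ORC4 is in the list of other replication genes) had log2 fold changes from −0.13 (ORC5) to 0.18 (ORC6), and their summed level was 112 and 111 FPKM in the control and 111 FPKM in both knockdown libraries. CDC6 overlapped between the groups (37.5 and 35.6 against 37.2 and 39.3 FPKM).

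Among 9 firing factors, 1 fell (11.1%, near the 9.99% of all genes tested) and 0 rose. DBF4, the activating partner of the kinase CDC7, read 16.7 and 18.2 FPKM in the control and 13.9 and 14.4 FPKM in the knockdown libraries. Its groups were separate, and the log2 fold change was −0.28 (SE 0.068, limma adjusted p = 0.0303). It passed without control replicate 1 (0.0282), but limma adjusted p was 0.096 without control replicate 2, 0.15 without knockdown replicate 1 and 0.0984 without knockdown replicate 2. CDC7 itself had a log2 fold change of −0.12 (limma adjusted p = 0.232). CDC45, which joins the ring with GINS to form the active helicase, read 127 and 119 FPKM in the control and 127 and 125 FPKM in the knockdown libraries. Its groups overlapped, and its log2 fold change of 0.036 (95% interval up to 0.18, limma adjusted p = 0.706) took a negative sign without control replicate 2 (−0.013). The 4 GINS subunits summed to 111 and 112 FPKM against 112 and 116 FPKM, with log2 fold changes from −0.035 (GINS1) to 0.21 (GINS3).

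**Figure D3:**
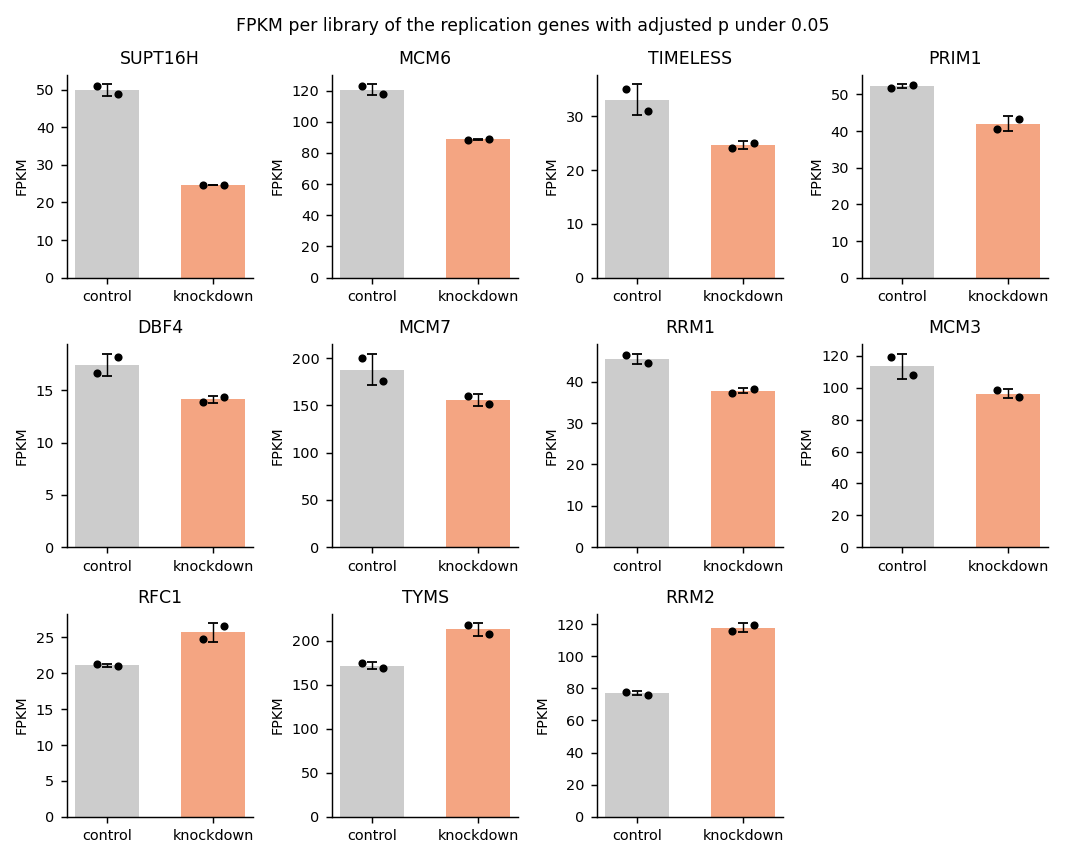
FPKM in each library (points) for the 11 members that passed the test, with the mean of each group as a bar and the SD of its 2 libraries as an error bar. Each panel has its own axis from 0. The control and knockdown points do not overlap in any of the 11 panels, which follows largely from choosing genes that passed. Of all genes tested, 64.8% had groups that do not overlap. SUPT16H has the widest gap in proportion to its level.

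Polymerase alpha-primase lays down primers, and polymerase epsilon and polymerase delta extend them. Of the 9 genes, 1 fell (11.1%, again near the 9.99% of all genes tested) and 0 rose, with a median log2 fold change of −0.028. PRIM1, the catalytic primase subunit, read 51.8 and 52.6 FPKM in the control and 40.6 and 43.4 FPKM in the knockdown libraries. All control values lay above all knockdown values, at a log2 fold change of −0.31 (SE 0.060, limma adjusted p = 0.0158). The call was lost without knockdown replicate 1 (limma adjusted p = 0.126) and without knockdown replicate 2 (0.0584). PRIM1 made up 54.2% and 55.8% of the summed FPKM of the 4 subunits of its complex in the control and 49.1% and 49.5% in the knockdown libraries, while POLA1 went from 11.5% and 11.7% to 14.4% and 14.8%.

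POLD2, an accessory subunit of polymerase delta, was the most abundant polymerase gene. It read 108 and 95.7 FPKM in the control and 121 and 111 FPKM in the knockdown libraries, with a log2 fold change of 0.19 (limma adjusted p = 0.129), and among the fits with a library left out it passed only without control replicate 1 (0.0447). Its more abundant transcripts had log2 fold changes of opposite sign, 0.42 and −0.57, the latter mostly from knockdown replicate 2. NM_006230, the main one, read 73.4 and 64.6 FPKM in the control and 91.9 and 93.7 FPKM in the knockdown libraries, while NM_001127218 read 33.3 and 30.1 FPKM against 28.3 and 15.6 FPKM. Neither transcript passed the test across transcripts (limma adjusted p = 0.112 and 0.38). POLE, POLD1 and POLA2 had log2 fold changes of −0.11, −0.039 and −0.00013.

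PCNA, the sliding clamp, was the most abundant member, with 249 and 236 FPKM in the control and 228 and 225 FPKM in the knockdown libraries. Its groups did not overlap, but the log2 fold change of −0.10 did not pass (limma adjusted p = 0.274). Of the 5 subunits of replication factor C, which loads the clamp, RFC1 rose and the others did not pass, so 1 of the 6 clamp and loader genes was called (16.7%, against 20.9% of all genes tested). RFC1, the large subunit, read 21.3 and 21.0 FPKM in the control and 24.8 and 26.6 FPKM in the knockdown libraries. Its groups were separate, and the log2 fold change was 0.27 (SE 0.063, limma adjusted p = 0.0269). Limma adjusted p was 0.0476 without control replicate 1, 0.0613 without control replicate 2, 0.0777 without knockdown replicate 1 and 0.159 without knockdown replicate 2. The call rests on the sum of its transcripts. NM_001204747 read 8.0 and 6.82 FPKM against 12.7 and 6.31 FPKM, and NM_002913 read 13.3 and 14.2 FPKM against 12.1 and 20.3 FPKM, so each overlapped between the groups.

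RPA coats single-stranded DNA at the fork, and FEN1 and LIG1 trim and join Okazaki fragments. None of these 5 genes passed the test. RPA1, RPA2 and RPA3 had log2 fold changes of 0.17, 0.13 and −0.12, and FEN1 and LIG1 had 0.036 and −0.084. RPA1 had an unadjusted p of 0.0344 (limma adjusted p = 0.106), and the other 4 had an unadjusted p over 0.05, a threshold that 37.0% of all genes tested fell under.

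The fork protection genes hold helicase and polymerase together and relay signals to the replication checkpoint. Of the 4, TIMELESS fell (1 of 4, against 9.99% of all genes tested) and 0 rose. All 4 had a negative log2 fold change, as did 5186 of the 10968 genes tested. TIMELESS read 35.1 and 31.0 FPKM in the control and 24.1 and 25.1 FPKM in the knockdown libraries, 74.4% of control. The groups were separate, with a log2 fold change of −0.41 (SE 0.074, limma adjusted p = 0.0128), and the call was lost without knockdown replicate 1 (0.0787) and without knockdown replicate 2 (0.0526). TIPIN, its binding partner, read 12.8 and 10.8 FPKM against 8.63 and 10.2 FPKM, with a log2 fold change of −0.30 that did not pass (SE 0.107, limma adjusted p = 0.0914), and it passed without control replicate 2. TIMELESS made up 73.2% and 74.3% of their sum in the control and 73.6% and 71.2% in the knockdown libraries, which overlap. CLSPN and WDHD1 overlapped between the groups (log2 fold changes of −0.033 and −0.092).

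FACT is a histone chaperone of SUPT16H and SSRP1 that moves nucleosomes ahead of polymerases, in transcription as well as in replication. SUPT16H (ENSG00000092201.10, chr14:21351476-21384019, minus strand, hg38) read 51.0 and 48.8 FPKM in the control and 24.7 FPKM in both knockdown libraries. No other member changed as far: the knockdown mean was 49.5% of control, and the log2 fold change was −0.98 (SE 0.058, 95% interval −1.12 to −0.85, limma adjusted p = 0.000526). The call held with each library left out (limma adjusted p 0.00083 to 0.00475) and in the test across transcripts, where its 1 transcript was the only member among 25 called of 15795. SSRP1 read 151 and 143 FPKM in the control and 130.4 and 133 FPKM in the knockdown libraries. Its groups did not overlap, but its log2 fold change of −0.16 did not pass (limma adjusted p = 0.102). It passed under median-ratio scaling (limma adjusted p = 0.0298) and with the columns scaled to one sum (0.0214). SUPT16H thereby went from 25.3% and 25.5% of the summed FPKM of the pair to 15.9% and 15.7%, and its ratio to SSRP1 from 0.338 and 0.342 to 0.189 and 0.186. A pseudogene, SUPT16HP1, carries its name, and how reads shared with it were assigned was not given in the sources used here.

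Of the 3 genes of nucleotide supply, 2 rose and 1 fell, where 20.9% of all genes tested were called in either direction, and the median log2 fold change was 0.30. Ribonucleotide reductase makes deoxyribonucleotides from a large subunit (RRM1) and a small subunit (RRM2) whose level normally follows S phase, and thymidylate synthase (TYMS) makes dTMP. RRM2 (ENSG00000171848.16, chr2:10120698-10211725, plus strand, hg38) read 78.0 and 76.1 FPKM in the control and 116 and 119.8 FPKM in the knockdown libraries. Both knockdown libraries lay well above both controls, at 153% of control and a log2 fold change of 0.61 (SE 0.056, limma adjusted p = 0.00156), and the call held with each library left out (0.0028 to 0.0185). RRM1 moved in the opposite direction, from 46.4 and 44.6 FPKM to 37.4 and 38.3 FPKM, without overlap (log2 fold change −0.26, SE 0.058, limma adjusted p = 0.0233). The call of RRM1 was lost without control replicate 1 (limma adjusted p = 0.0528), knockdown replicate 1 (0.15) and knockdown replicate 2 (0.107).

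The ratio of RRM2 to RRM1 was 1.68 and 1.71 in the control and 3.1 and 3.13 in the knockdown libraries, and RRM2 made up 62.7% and 63.0% of their sum in the control and 75.6% and 75.8% in the knockdown libraries. TYMS read 175 and 169 FPKM in the control and 218 and 208 FPKM in the knockdown libraries. Its groups were separate, with a log2 fold change of 0.30 (SE 0.058, limma adjusted p = 0.0145), and the call was lost without knockdown replicate 1 (0.146) and without knockdown replicate 2 (0.0839). TYMS (ENSG00000176890.16, chr18:657653-673578, plus strand, hg38) shares 47.9% of its exon bases with exons of ENOSF1 and TYMSOS on the opposite strand. Whether reads were counted by strand was not given in the sources used here, so reads of these genes may be mixed. Exon overlap with an opposite-strand gene was found for 21 of the 52 members, 5 of them among the 11 that passed. Named pseudogenes were found for 13 members, among them DBF4, SUPT16H, RRM2 and TYMS.

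**Figure D4:**
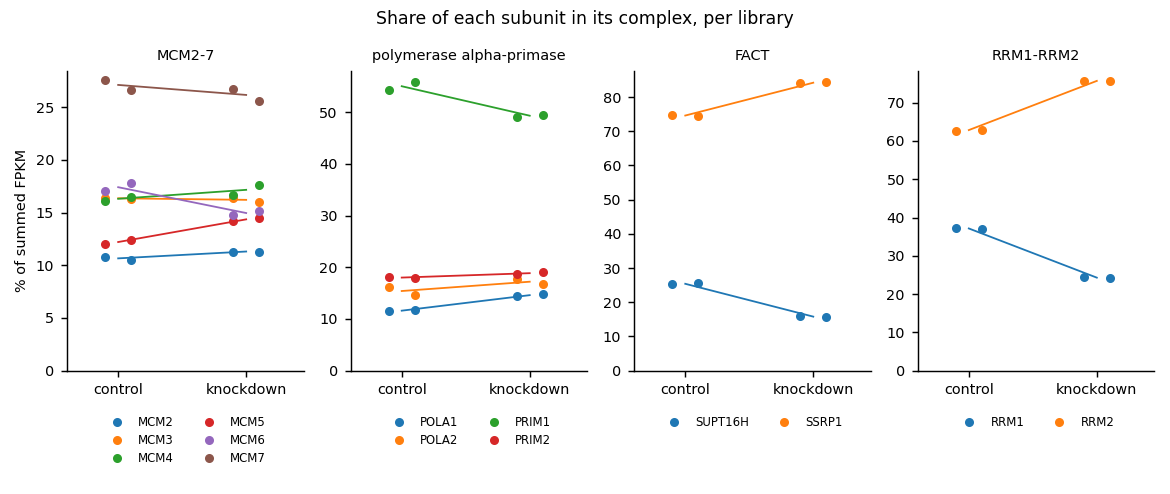
Share of each subunit in the summed FPKM of its complex, in percent, for each of the 4 libraries (points), with lines joining the group means. SUPT16H falls from about 25.4% to 15.8% of FACT and RRM2 rises from 62.9% to 75.7% of the RRM1 and RRM2 sum. In both of these pairs the libraries of a group lie close together.

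The 41 members that did not pass had log2 fold changes from −0.30 to 0.27, and 38 of them lay under 0.2 in size. Their 95% intervals, not adjusted for the number of genes, reached from −0.55 to 0.45 at the extremes. The median half-width over all 52 members was 0.152, but passing the adjusted test took a larger change. The smallest change that passed was −0.23 (MCM3), while CDT1 at 0.27 and TIPIN at −0.30 did not pass. Changes up to 0.30 in size could thus go uncalled. By transcript, 21 members had 1 transcript in the table and 31 had 2 or more, and in 37 the main transcript held at least 90% of the FPKM. The test across transcripts called 25 of 15795 (0.158%), so it says little of single members: 17 of the 83 member transcripts tested had an unadjusted p under 0.05, against 3213 of all. RRM2 rose in its main transcript NM_001034 by a log2 fold change of 0.70 without passing there (limma adjusted p = 0.0642).

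Other genes of replication, its regulators and mitosis were read beside the members. Of 47 other replication genes, 7 fell and 2 rose (19.1%, against 20.9% of all genes tested), with a median log2 fold change of −0.022. TOP1, the topoisomerase that relieves torsion ahead of the fork, had the smallest adjusted p, at 45.1 and 46.4 FPKM in the control and 32.0 and 30.8 FPKM in the knockdown libraries (log2 fold change −0.53, limma adjusted p = 0.00259). MCM8, a relative of the ring subunits with a role in recombination, fell by 0.53 on the log2 scale, RNASEH1 by 0.36, ATRIP by 0.32 and MCMBP by 0.24. The chromatin assembly subunits CHAF1A and CHAF1B had log2 fold changes of −0.27 and 0.21 (limma adjusted p = 0.0196 and 0.0493). The call of CHAF1B was lost with each library left out (0.0501 to 0.196), and that of CHAF1A without knockdown replicate 1 (0.121) and knockdown replicate 2 (0.104). RNASEH2B fell by 0.26 on the log2 scale, and POLE3, a histone-fold subunit of polymerase epsilon, rose by 0.25. Calls over all genes tested dropped in every fit with a library left out, to the shares given above for the members. With a library left out, 4 fell and 1 rose without control replicate 1 and 6 fell and 0 rose without control replicate 2. Without knockdown replicate 1 only TOP1 was called, and without knockdown replicate 2 only TOP1 and MCM8, all lower.

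Of 13 E2F and RB regulators, 1 fell and 1 rose (15.4%, against 20.9% of all genes tested), with a median log2 fold change of 0.11. E2F7, a repressor of E2F targets, read 2.65 and 2.7 FPKM in the control and 5.15 and 4.96 FPKM in the knockdown libraries (log2 fold change 0.72, limma adjusted p = 0.00285). E2F7 passed with any library left out. RBL2, a pocket protein of resting cells, had a log2 fold change of −0.28 (limma adjusted p = 0.0259), and the call was lost with each library left out in turn (0.058 to 0.115). Of 25 mitotic genes, 24 were tested, UBE2C being under 1 FPKM, and 9 fell and 1 rose (41.7%, against the same 20.9%), with a median log2 fold change of −0.092. The genes that fell were CCNA2, CCNB1, CDK1, TPX2, CENPE, CENPF, NUF2, BIRC5 and MKI67, at −0.40 to −0.24. MKI67, the common proliferation marker, read 22.2 and 23.6 FPKM in the control and 16.4 and 17.9 FPKM in the knockdown libraries (limma adjusted p = 0.0121), and PRC1, a midzone protein of cytokinesis, rose by 0.22 on the log2 scale. Without control replicate 1 or control replicate 2, 7 of the mitotic genes fell and 0 rose. Only NUF2 passed without knockdown replicate 1, and only NUF2 and MKI67 passed without knockdown replicate 2. Fewer of all genes tested were called in each of these fits too, so the loss of calls is not particular to the mitotic genes. The part of cell cycle phase in the values of the 52 members was not tested.

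**Figure D5:**
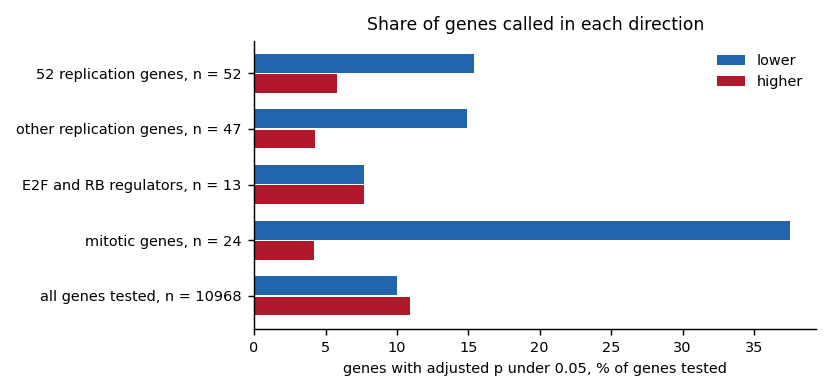
Percent of the genes tested that had an adjusted p under 0.05 in limma (x axis), lower (blue) or higher (red) in the knockdown, for the 52 origin and fork genes, the 3 lists beside them and all genes tested. The lower bar is 15.4% for the origin and fork genes, 14.9% for other replication genes, 37.5% for mitotic genes and 9.99% for all genes.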

How the data were processed

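RNA from 4 libraries labelled NB4 (2 control, 2 CEBPG knockdown) was sequenced by the authors. According to the submitters' processing notes, HISAT2 2.0.5 and hg38 were used. The deposited unit was FPKM per RefSeq transcript. Of 29265 entries, 183 held no value and 164 had no symbol (0.25% of FPKM). The other 28918 were summed to 16504 symbols. Whole reads could not be recovered, so depth was unknown. The 10968 genes whose mean reached 1 FPKM were fitted as log2(FPKM + 1) in limma 3.58.1 (R 4.3.3) with a mean trend, without a block, 2-sided, with adjustment over all genes tested, and the fit was tested on simulated data. A fold change on this scale understates low genes.

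Members and lists (other replication genes, E2F and RB regulators, mitotic genes, erythroid, promyelocytic and myeloid, and lymphoid markers) were chosen with earlier results of these data known. Library values were given for called members and the 6 of highest mean. Of the lists beside them, called genes were named. CDT1, TIPIN, MCM5, CDC6, GMNN and the transcripts were detailed after their values were seen. Positions came from GENCODE 44 and promoters from RefSeq.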

Additional observations from a re-analysis of the deposited data

How the results depend on the processing

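Of the origin and fork genes, 8 fell and 3 rose. Under other processing these counts became 7 and 3 with a pseudocount of 0.1 (20.7% of all genes called, against 20.9%), 3 and 1 with no filter on low values (5.34%), 8 and 4 when a mean of 5 FPKM was required (29.0%), 10 and 4 with median-ratio scaling (24.5%), 11 and 4 with the columns scaled to one sum (24.4%), and 4 and 2 with moderation without a trend (17.2%). Under both scalings 13.0% of all genes fell and 11.5% or 11.4% rose, against 9.99% and 10.9% without scaling. In a fit of transcripts in place of genes, 1 fell and 0 rose by limma, where 25 of 15795 transcripts were called (0.158%) and 17 of 83 member transcripts had an unadjusted p under 0.05, against 3213 of all. With a replicate block, 11 fell and 6 rose (31.4% of all genes called). Libraries of the same number had deviations with a correlation of 0.101 over genes, and with 2 pairs they share only a number. With a library left out, 2 to 8 fell and 1 to 5 rose. The cause of these shifts was not tested. The median log2 fold change stayed between −0.074 and 0.0004 in all 12 alternatives, against a replicate SD of 0.0518. SUPT16H was called in 12 of the 12, MCM6 and RRM2 in 11, PRIM1 in 9, TIMELESS and TYMS in 8, MCM7, DBF4, RFC1 and RRM1 in 6 and MCM3 in 5, none with the opposite sign. The block and both scalings added MCM4, SSRP1 and CDT1, the block also ORC6, POLD2 and TIPIN, and the scaling to one sum also PCNA, while the 5 FPKM minimum added CDT1. Of the mitotic genes, 9 fell and 1 rose, but 2 and 0 with no filter and 7 and 0 without a trend. Of other replication genes, 7 and 2 became 3 and 0 with no filter and 4 and 0 without a trend, and RBL2 was lost with no filter. CDC45 changed sign in its main transcript (−0.037) and without control replicate 2 (range −0.013 to 0.085 with a library left out). Depth was unknown, so counting error could not be separated from replicate spread.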
